A study of Aconitum japonicum with 4 samples.

Results

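The 6 transcripts described here encode the steps of the methylerythritol phosphate (MEP) pathway from DXR to ISPH in *Aconitum japonicum*, a perennial aconite that accumulates diterpene alkaloids. They were chosen by transcript identifier, 1 for each of the steps DXR, ISPD, ISPE, ISPF, ISPG and ISPH, from the study's list of terpenoid pathway transcripts, and all 6 were found among the 129760 transcripts of the deposited tables. The rule itself uses no expression value. The study measured RNA in leaf, rootlet, daughter root and mother root of greenhouse-grown plants, where the mother root is the old tuber, the daughter root the new tuber beside it and the rootlets the fine roots. No treatment was given and no genotype was named. RNA came from a single biological replicate of each organ, and poly(A) RNA was sequenced as paired ends from strand-specific libraries on an Illumina instrument. Each organ thus had 1 library, so differences between organs had no replicate check and were not tested.

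The MEP pathway is the plastid route to isopentenyl diphosphate (IPP) and dimethylallyl diphosphate (DMAPP), the building blocks of all terpenoids, and it starts from pyruvate and glyceraldehyde phosphate. Its first enzyme, DXS, makes deoxyxylulose phosphate, and the 6 enzymes described here carry that compound in turn to IPP and DMAPP. In green tissue the products serve the carotenoids and the side chain of chlorophyll, while plastid diterpenes, including gibberellins and the diterpene skeletons of aconite alkaloids, are made from the same units.

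Levels are given in FPKM, fragment counts scaled to the mapped fragments of the library and to the effective length of the transcript. Effective length is the transcript length less about the mean fragment length, here 148 to 149 bases. The scaling serves to compare transcripts of different length, but the levels of very short transcripts rest heavily on this correction. Values in parentheses after a level or a ratio are 95% limits that cover counting error only, with no adjustment for the number of ratios compared. The libraries held between 4492151 fragments (rootlet) and 12792781 fragments (daughter root), and the 6 transcripts, of 1018 to 2837 bases, held between 35 and 4307 fragments each. As a check of the organ labels, 4 transcripts annotated as photosynthetic summed to 201 FPKM in leaf, 3.05 in rootlet, 3.42 in daughter root and 2.57 in mother root. Most of the leaf sum, 175 FPKM, came from a ferredoxin-NADP reductase transcript. Of these 4, 3 were highest in leaf, and the transcript annotated as Rubisco activase had 1 to 3 fragments in every library and was not. A photosystem II reaction centre transcript was highest in leaf from only 5 fragments, against 1 to 3 in the other libraries. A photosystem II cytochrome b559 transcript had 23.7 FPKM in leaf and was at 0 in rootlet and mother root. The part of green tissue in the leaf levels below was not tested, and in whole organs fewer cells of a type and less RNA per cell cannot be told apart.

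DXR, the reductoisomerase that turns deoxyxylulose phosphate into MEP and so gives the pathway its name, was represented by TR43149|c0_g1_i1. It had 67.9 FPKM (62.4 to 73.8) in leaf, 42.6 FPKM (38.2 to 47.3) in rootlet, 18.4 FPKM (16.7 to 20.2) in daughter root and 36.4 FPKM (33.9 to 39.1) in mother root. Leaf was thus highest and daughter root lowest, and the limits of every neighbouring pair in this order excluded a ratio of 1. Leaf exceeded the next highest organ, the rootlet, 1.59-fold (1.39 to 1.83) and the daughter root 3.69-fold (3.25 to 4.20). Among transcripts with at least 1 FPKM in the same library, DXR stood at percentile 97.2 in leaf, 92.4 in rootlet, 85.7 in daughter root and 93.0 in mother root. On this scale too DXR lay lowest in daughter root.

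ISPD, the enzyme that joins MEP to a cytidyl group from CTP, was represented by TR39144|c0_g1_i1. Its level was 9.42 FPKM (7.25 to 12.03) in leaf, 5.18 FPKM (3.61 to 7.20) in rootlet, 18.7 FPKM (16.8 to 20.7) in daughter root and 9.41 FPKM (8.04 to 11.0) in mother root. It was the only one of the 6 with its highest level in daughter root, the organ where DXR was lowest. Leaf and mother root had a ratio of 1.001 (0.738 to 1.34) and were not set apart by counting error. Daughter root exceeded mother root 1.98-fold (1.64 to 2.40) and rootlet 3.60-fold (2.54 to 5.25).

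The study lists a second ISPD transcript, TR39144|c0_g1_i2, which the assembly placed in the same gene. It had 14.5 FPKM in leaf, 7.04 in rootlet, 19.3 in daughter root and 10.6 in mother root, from 56, 27, 211 and 107 fragments. The order of the organs by value was the same for both ISPD transcripts, but no neighbours in it were set apart for the second. For that transcript leaf over mother root was 1.37 (0.972 to 1.91) and mother root over rootlet 1.51 (0.981 to 2.39). Daughter root exceeded leaf 1.33-fold in the second transcript, with limits of 0.985 to 1.82 that include 1, and 1.98-fold (1.51 to 2.63) in the first. The second transcript held 46.7% of the fragments of the pair in leaf, 43.5% in rootlet, 37.0% in daughter root and 39.1% in mother root. How reads common to both isoforms were assigned is not shown by the tables, so the levels of the pair taken singly are uncertain.

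ISPE, the kinase that phosphorylates the cytidyl intermediate, was represented by TR41484|c0_g1_i1 and was the most even of the steps. Its level was 12.8 FPKM (10.01 to 16.0) in leaf, 17.0 FPKM (13.8 to 20.7) in rootlet, 14.4 FPKM (12.6 to 16.4) in daughter root and 11.6 FPKM (9.95 to 13.4) in mother root. Rootlet, the highest organ, exceeded mother root, the lowest, 1.46-fold (1.13 to 1.88), and no neighbours in the order were set apart. Of the 6 pairs of organs, only rootlet over mother root and daughter root over mother root had limits that excluded 1. The percentile of ISPE among transcripts with at least 1 FPKM stayed between 82.2 and 83.9 in the 4 organs. The number of such transcripts differed, from 63690 in daughter root to 87759 in leaf, so percentiles and ranks need not follow each other. By rank among all transcripts ISPE stood at 14122 in leaf, 10892 in rootlet, 11024 in daughter root and 13661 in mother root. A second transcript of the same assembled gene, TR41484|c0_g1_i2, is only 329 bases long, with 4 to 12 fragments per library and FPKM values between 4.73 and 7.36.

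ISPF, the synthase that closes the cyclic diphosphate ring, was represented by TR40389|c0_g1_i1. It reached 105 FPKM (95.5 to 116) in leaf, 59.9 FPKM (52.5 to 68.1) in rootlet, 53.0 FPKM (48.8 to 57.4) in daughter root and 74.99 FPKM (69.8 to 80.5) in mother root. Leaf was highest, mother root second, and rootlet and daughter root were not set apart, with a ratio of 1.13 (0.968 to 1.32). Leaf exceeded mother root 1.41-fold (1.24 to 1.59). A short transcript of the same assembled gene, TR40389|c0_g1_i2 with 333 bases, had 52.8 FPKM in leaf, 22.9 in rootlet, 16.0 in daughter root and 25.6 in mother root. From 44, 19, 38 and 56 fragments in these organs, its values fell in the same order as those of the longer one. The limits of rootlet, 13.8 to 35.8 FPKM, held the values of both tuberous roots, so the place of rootlet was not set.

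ISPG, an iron-sulfur enzyme that opens the ring to give hydroxymethylbutenyl diphosphate (HMBPP), was represented by TR52997|c1_g1_i2. It had 241 FPKM (232 to 250) in leaf, 89.4 FPKM (84.2 to 94.9) in rootlet, 87.3 FPKM (84.2 to 90.4) in daughter root and 136 FPKM (132 to 140) in mother root. This order of organs was that of ISPF, with rootlet over daughter root at 1.02 (0.955 to 1.10) again not set apart. Leaf exceeded mother root 1.77-fold (1.69 to 1.86) and daughter root 2.76-fold (2.62 to 2.90). ISPG was the most abundant of the 6 steps in rootlet, where it ranked 2568 among all transcripts, and in mother root, where it ranked 1509.

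ISPH, the iron-sulfur reductase that releases IPP and DMAPP from HMBPP, was represented by TR49449|c3_g1_i1 and varied most between organs. It had 369 FPKM (355 to 384) in leaf, 74.2 FPKM (67.9 to 80.8) in rootlet, 103 FPKM (98.3 to 107) in daughter root and 88.9 FPKM (84.7 to 93.3) in mother root. All neighbouring organs were set apart, and leaf exceeded rootlet 4.98-fold (4.53 to 5.48) and daughter root 3.59-fold (3.39 to 3.81). In leaf ISPH ranked 281 among all transcripts, at percentile 99.7 of those with at least 1 FPKM, and leaf held 58.1% of the sum of its levels over the 4 organs. Among the 3 root organs daughter root was highest for ISPH, while DXR, ISPF and ISPG had their lowest values there. For ISPF and ISPG that value was not set apart from rootlet. DXR, ISPG and ISPH had no other transcript of their assembly component in the tables. The study removed redundant sequences from the assembly before quantification, and whether other copies of these steps were lost there is not shown.

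**Figure D1:**
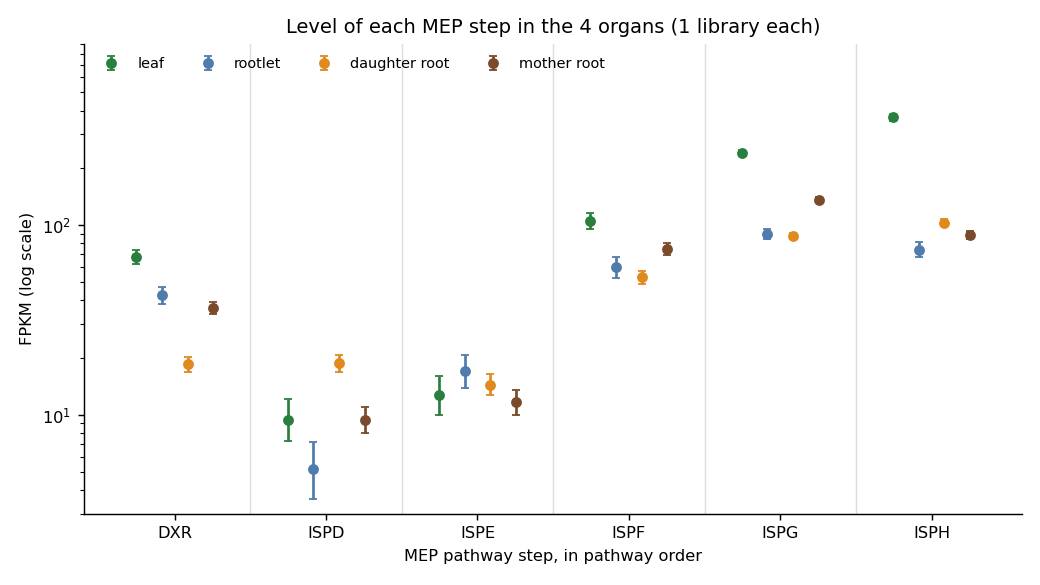
FPKM of each of the 6 transcripts (log axis) in leaf, rootlet, daughter root and mother root, 1 library each, with bars for 95% limits of counting error. DXR, ISPF, ISPG and ISPH are highest in leaf, ISPD is highest in daughter root at 18.7 FPKM, and ISPE stays between 11.6 and 17.0 FPKM.

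Over the 6 steps there were 36 pairs of organs, and the limits of 7 of them included a ratio of 1. Of these 7, 4 belonged to ISPE and 1 each to ISPD, ISPF and ISPG. DXR, ISPF, ISPG and ISPH, 4 of the 6, were highest in leaf, while ISPE was highest in rootlet and ISPD in daughter root. Among the 33378 transcripts with at least 50 fragments over the 4 libraries, 29.4% were highest in leaf, 23.2% in rootlet, 23.4% in daughter root and 24.0% in mother root. No step was highest in mother root.

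The comparison of leaf with the mean of the 3 root organs sets the photosynthetic organ against the underground ones. ISPH had a log2 ratio of 2.06 (1.99 to 2.13), ISPG of 1.21 (1.15 to 1.27), DXR of 1.06 (0.92 to 1.21) and ISPF of 0.75 (0.59 to 0.91), all higher in leaf. For the middle steps ISPD and ISPE the log2 ratios were -0.23 (-0.61 to 0.14) and -0.17 (-0.53 to 0.19), with limits on both sides of 0. DXR, ISPG and ISPH, 3 of the 6, were at least 2-fold higher in leaf, against 17.1% of all transcripts, and none was at least 2-fold lower, against 30.0%. Among transcripts with at least 5 FPKM in a library, a level that all 6 reached, 34.6% were at least 2-fold higher in leaf. On the TPM scale, the FPKM values rescaled to the same sum over transcripts in each library, DXR came to 0.87. It was no longer past 2-fold there, while 14.5% of all transcripts were. The median log2 ratio of the 6 was 0.91, and that of all transcripts -0.28 with quartiles of -1.11 and 0.61. Both low-level steps thus lay inside the middle range of all transcripts, and the other 4 above its upper quartile.

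The comparison of daughter root with mother root sets the new tuber against the old one, and here the steps split. ISPD had a log2 ratio of 0.99 (0.72 to 1.26), ISPE of 0.31 (0.02 to 0.60) and ISPH of 0.21 (0.11 to 0.30), all higher in daughter root. DXR had a log2 ratio of -0.98 (-1.16 to -0.81), ISPG of -0.64 (-0.70 to -0.57) and ISPF of -0.50 (-0.66 to -0.35), all lower in daughter root. The 6 steps did not differ as 1 block between the tubers, since DXR and the next step, ISPD, lay in opposite directions. No step reached 2-fold in either direction on the deposited FPKM, against 12.1% of all transcripts at least 2-fold higher and 16.7% at least 2-fold lower. The share at least 2-fold lower was 24.3% among transcripts with at least 5 FPKM in a library and 27.0% with no minimum beyond 1 fragment in each tuber. DXR and ISPD lay just short of that fold: DXR passed it on the TPM scale, and ISPD passed it with median-of-ratios factors, which scale each library by the median of its transcripts' ratios to their mean. The median of the 6 was -0.15 beside -0.18 for all transcripts, and those factors turned both positive, to 0.06 and 0.02, without changing the direction of any single step.

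Rootlet against the mean of the tuberous roots compares fine roots with storage organs. ISPD had a log2 ratio of -1.44 (-1.93 to -0.94), the largest difference of the 6, with 5.18 FPKM in rootlet against 18.7 in daughter root and 9.41 in mother root. ISPH with -0.37 (-0.50 to -0.24) and ISPG with -0.32 (-0.41 to -0.23) were also lower in rootlet. DXR with 0.64 (0.46 to 0.81) and ISPE with 0.38 (0.07 to 0.70) were higher in rootlet, and the limits of ISPF, -0.10 (-0.30 to 0.11), included 0. ISPD alone was at least 2-fold lower, against 20.3% of all transcripts, and no step was at least 2-fold higher, against 13.4%, or 23.5% among transcripts with at least 5 FPKM in a library. The median of the 6 was -0.21, close to -0.18 for all transcripts, and it was 0.11 when daughter root alone stood for the tubers.

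**Figure D2:**
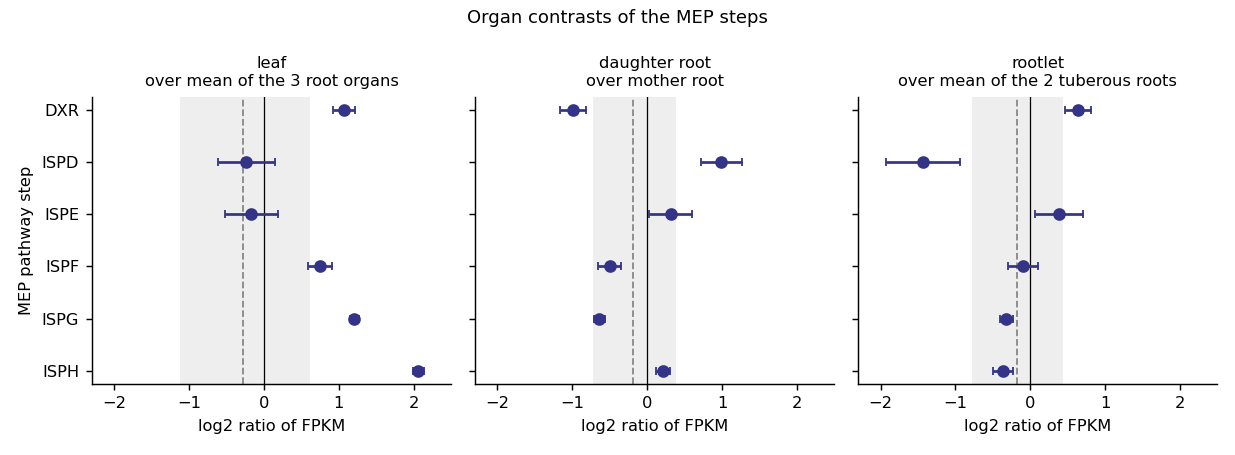
Log2 ratios of the 6 steps in the comparisons leaf over the mean of the 3 root organs, daughter root over mother root and rootlet over the mean of the tuberous roots, with bars for 95% limits of counting error, a grey band for the middle 50% of all transcripts and a dashed line for their median. ISPH stands highest in the leaf comparison at 2.06, and DXR and ISPD lie on opposite sides of 0 between the tubers at -0.98 and 0.99.

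Read along the pathway, each of the last 3 steps stood above each of the first 3 in every organ. ISPF, ISPG and ISPH together held 88.8% of the summed FPKM of the 6 in leaf, 77.5% in rootlet, 82.5% in daughter root and 83.9% in mother root. In leaf the order was ISPH, ISPG, ISPF, DXR, ISPE, ISPD, and the highest step exceeded the lowest 39.2-fold. In rootlet and mother root ISPG stood ahead of ISPH and the order was otherwise that of leaf, with spans of 17.3-fold and 14.4-fold. The daughter root had the narrowest span, 7.13-fold, and there ISPD and DXR had about equal levels, with ISPE lowest. With the FPKM of all transcripts of the same assembled gene added up, which brings in the second transcripts of ISPD, ISPE and ISPF, the spans were 18.4-fold in leaf, 7.32-fold in rootlet, 5.58-fold in daughter root and 7.89-fold in mother root. On these sums the lowest value was that of ISPE in leaf and mother root, ISPD in rootlet and DXR in daughter root. ISPE was not set apart from ISPD in leaf and mother root. In daughter root ISPE over DXR was 1.04 (0.852 to 1.27), with limits that include 1. ISPF stood ahead of ISPH in mother root, while in rootlet ISPH over ISPF, 0.896 (0.750 to 1.07), had limits that include 1. The sum of the 6 single transcripts was 806 FPKM in leaf, 288 in rootlet, 294 in daughter root and 357 in mother root, so that leaf exceeded the roots 2.79-fold, 2.74-fold and 2.26-fold in that order. On the TPM scale these sum ratios were 2.48, 2.41 and 1.95.

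**Figure D3:**
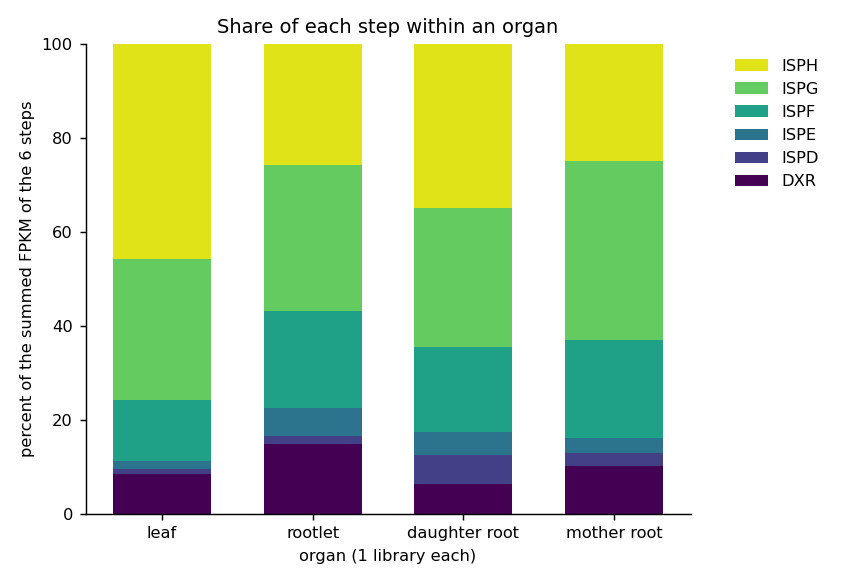
Share of each step in the summed FPKM of the 6 transcripts, in percent, for leaf, rootlet, daughter root and mother root. ISPH takes 45.8% in leaf and 24.9% in mother root, and ISPD takes its largest share, 6.33%, in daughter root.

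Ratios between neighbouring steps within a library do not depend on how libraries are scaled against each other. ISPD over DXR was 0.139 (0.105 to 0.180) in leaf, 0.122 (0.0833 to 0.172) in rootlet, 1.01 (0.878 to 1.17) in daughter root and 0.258 (0.217 to 0.306) in mother root. DXR thus exceeded this ISPD transcript in every organ except the daughter root, where counting error did not set them apart. With both ISPD transcripts added up, the ratio was 0.353 (0.288 to 0.432) in leaf, 0.287 (0.217 to 0.379) in rootlet, 2.06 (1.81 to 2.34) in daughter root and 0.550 (0.477 to 0.634) in mother root, so that ISPD exceeded DXR in daughter root and in no other organ. For the single transcripts, the ratio in daughter root was 7.31 times that in leaf (5.44 to 9.81), 8.34 times that in rootlet (5.73 to 12.1) and 3.92 times that in mother root (3.15 to 4.88). On the sums these factors were 5.85 (4.60 to 7.44), 7.19 (5.29 to 9.77) and 3.75 (3.10 to 4.54) in the same order of organs. Between leaf and rootlet the ratio of the single transcripts differed by a factor of 1.14 (0.740 to 1.76), which includes 1.

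ISPE over ISPD, both low in level, was 1.35 (0.955 to 1.92) in leaf, 3.28 (2.21 to 4.97) in rootlet, 0.772 (0.653 to 0.912) in daughter root and 1.23 (0.992 to 1.53) in mother root. Only in rootlet was ISPE the higher beyond counting error, and only in daughter root was it the lower. Summed per assembled gene, the ratio was 0.840 (0.577 to 1.22) in leaf, 1.79 (1.23 to 2.60) in rootlet, 0.504 (0.415 to 0.612) in daughter root and 0.859 (0.674 to 1.096) in mother root. In leaf and mother root the value thus turned to below 1, with limits that include 1 on both scales, while rootlet and daughter root kept their directions. ISPF over ISPE was, by value, the largest step up in level in each of the 4 organs. It was 8.27 (6.44 to 10.7) in leaf, 3.53 (2.78 to 4.51) in rootlet, 3.68 (3.16 to 4.29) in daughter root and 6.46 (5.48 to 7.66) in mother root. In rootlet ISPE over ISPD, at 3.28, lay within these limits, so the largest step between single transcripts was not set there. ISPG over ISPF was 2.28 (2.06 to 2.54) in leaf, 1.49 (1.295 to 1.73) in rootlet, 1.65 (1.51 to 1.80) in daughter root and 1.81 (1.68 to 1.96) in mother root. ISPG exceeded this ISPF transcript in all 4 organs, and its highest ratio, in leaf, was 1.53 times its lowest, in rootlet (1.28 to 1.82). With the short ISPF transcript added, the ratio was 1.52 (1.35 to 1.72) in leaf, 1.08 (0.915 to 1.28) in rootlet, 1.27 (1.14 to 1.40) in daughter root and 1.35 (1.23 to 1.48) in mother root, and the limits in rootlet included 1.

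The iron-sulfur enzymes at the end of the pathway changed places between organs. ISPH over ISPG was 1.53 (1.45 to 1.62) in leaf, 0.829 (0.746 to 0.922) in rootlet, 1.18 (1.11 to 1.25) in daughter root and 0.655 (0.618 to 0.694) in mother root. ISPH was the more abundant in leaf and daughter root, and ISPG in rootlet and mother root. The ratio in leaf was 2.34 times that in mother root (2.17 to 2.53), and that in daughter root was 1.80 times that in mother root (1.66 to 1.95). From the first to the last of the 6, ISPH over DXR differed between leaf and daughter root by a factor of 0.974 (0.848 to 1.12), and leaf exceeded rootlet in this ratio 3.12-fold (2.65 to 3.68). Of the 20 ratios of neighbouring steps between single transcripts, 3 had limits that included 1, and all 3 involved ISPD.

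**Figure D4:**
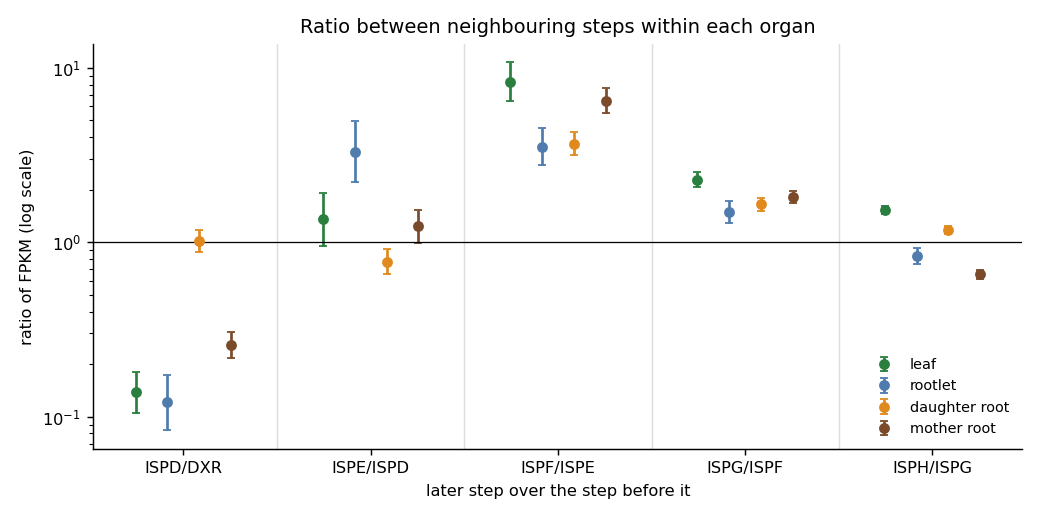
Ratio of each step to the step before it (log axis), from the single transcript of each step, in leaf, rootlet, daughter root and mother root, with bars for 95% limits of counting error and a line at 1. ISPD over DXR lies near 1 in daughter root and at 0.122 to 0.258 in the other organs, and ISPH over ISPG falls on both sides of 1.

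The neighbours of these steps in the pathway give their setting. DXS, which supplies the substrate of DXR, was listed with 8 transcripts, of which 5 had at least 50 fragments over the 4 libraries. Rootlet was the highest organ for 5 of the 8, leaf for 2 and daughter root for 1. The DXS transcripts under 50 fragments were all highest in rootlet. The other DXS transcripts highest in rootlet, TR44886|c0_g1_i2 and TR36602|c0_g1_i1, had 29 and 14 fragments there against 24 and 13 in leaf. The most abundant, TR46556|c4_g1_i1, had 213 FPKM in leaf, 14.4 in rootlet, 14.6 in daughter root and 14.2 in mother root, a log2 ratio of leaf over roots of 3.89 that exceeded the 2.06 of ISPH. IPPI, the isomerase that interconverts IPP and DMAPP after ISPH, had 3 transcripts, all highest in leaf, with a median log2 ratio of leaf over roots of 0.97. Its most abundant transcript, TR42449|c0_g2_i1, had 224 FPKM in leaf, 96.9 in rootlet, 167 in daughter root and 185 in mother root.

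In the mevalonate pathway, the cytosolic route to the same products, none of the 13 listed transcripts was highest in leaf and 11 were highest in daughter root, with a median log2 ratio of leaf over roots of -0.54. The 19 listed transcripts of later diterpene steps, from geranylgeranyl diphosphate synthase (GGPPS) to ent-kaurene oxidase (KO), had a median of 0.33 and went in both directions. Of the 14 with at least 50 fragments, 3 were at least 2-fold higher in leaf, against 17.1% of all transcripts. Another 5 of the 14 were at least 2-fold lower, against 30.0%. Among the 8 transcripts highest in leaf, 3 had fewer than 50 fragments. The most abundant transcripts of ent-kaurene synthase, TR44184|c3_g1_i2, and of KO, TR40067|c2_g1_i1, were highest in mother root, with log2 ratios of leaf over roots of -3.69 and -3.24. DXR, ISPF, ISPG and ISPH thus had their highest organ in common with the IPPI transcripts, and ISPD with most mevalonate transcripts. These counts describe listed transcripts, several of which come from the same assembled gene, and were not tested.

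**Figure D5:**
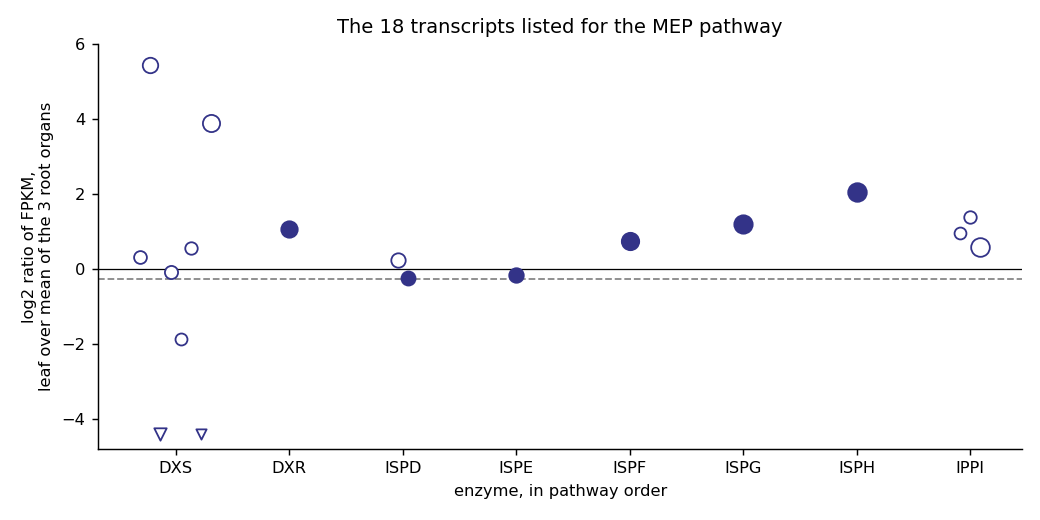
Log2 ratio of leaf over the mean of the 3 root organs for the 18 transcripts of the MEP list by enzyme in pathway order, filled for the 6 steps and open for the others, with marker size growing with mean FPKM, a dashed line at the median of all transcripts and triangles at the lower edge for 2 DXS transcripts with 0 fragments in leaf. ISPF, DXR, ISPG and ISPH lie at 0.75 to 2.06 and ISPD and ISPE near 0, while the DXS transcripts spread to both sides of all of them.

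The profile of each step over the 4 organs was compared with the other listed pathway transcripts by the Euclidean distance of log2(FPKM + 1), centred over the organs, as a description with 1 library per organ. ISPF and ISPG were nearest to each other, at 0.455. ISPD was nearest to a DXS transcript, TR54749|c2_g1_i1, at 0.165, which had 6.22 FPKM in leaf, 3.23 in rootlet, 10.8 in daughter root and 5.74 in mother root. DXR was nearest to another DXS transcript, TR36602|c0_g1_i1, at 0.546, whose 5.93, 6.42, 1.77 and 4.01 FPKM in leaf, rootlet, daughter root and mother root repeat the low value in daughter root from only 11 to 23 fragments each. The nearest profile to ISPH was GGPPS TR47741|c1_g1_i2, at 0.829, with 30.0 FPKM in leaf, 11.6 in rootlet, 15.2 in daughter root and 8.33 in mother root. For ISPE the nearest was a KO transcript with at most 0.42 FPKM in any organ, whose flat profile comes from the added constant. Within the 6, DXR and ISPD were farthest apart, at 2.28.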

How the data were processed

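RNA of leaf, rootlet, daughter root and mother root was sequenced by the authors in 1 library per organ. Reads were trimmed with Trimmomatic, assembled de novo and quantified with RSEM, as the study and the labels state. Before quantification the study removed redundant sequences from the assembly with CD-HIT-EST. There was no reference genome. The deposited tables give, per transcript, an expected count, TPM, FPKM, a transcript length, an effective length and an isoform percent. The deposited expected counts were whole numbers in these tables and served as fragment counts for the limits. The deposited FPKM values were the measure of level, the deposited TPM values an alternative scaling, and the deposited isoform percent was not used, since each transcript was its own gene in the tables. The TPM values were the FPKM values rescaled, within 0.0775.

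Ratios were formed without a pseudocount. The 95% limits were exact Poisson limits for levels and Clopper-Pearson limits for ratios of 2 libraries or 2 steps. Delta-method limits served where organs were averaged or ratios compared. Only the limits of the organ comparisons were tried on simulated counts, with 200 transcripts at each changed fold. Those counts carried only the counting error that the limits assume, so the trial says nothing on other variation. Backgrounds used transcripts with at least 50 fragments over the 4 libraries, and a ratio of at least 2-fold was counted. The 6 members and the pathway lists were chosen with earlier results of these data known. Named beside the members were other transcripts of the same assembled gene, the most abundant transcript of a neighbouring enzyme and the nearest profile of each member. Alternatives were TPM, median-of-ratios factors, an added 1 FPKM, other minimum levels, sums per assembled gene and single root organs. Sums per assembled gene were also taken for the ratios between steps, an alternative chosen after seeing the data, with delta-method limits. Photosynthesis markers came from the part of the annotation held here. Python 3.11.15, numpy 2.4.6, pandas 2.3.3, scipy 1.17.1 and matplotlib 3.10.9 were used.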

Additional observations from a re-analysis of the deposited data

How the results depend on the processing

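That 4 of the 6 steps were highest in leaf held under every alternative run. The median log2 ratio of leaf over the root organs, 0.91, was 0.72 on the TPM scale, 1.23 against daughter root alone and 0.66 against mother root alone. That of daughter root over mother root, -0.15, turned to 0.060 with median-of-ratios factors, which moved the median of all transcripts by 0.21, and that of rootlet over the tuberous roots, -0.21, turned to 0.11 against daughter root alone, where ISPD is high and DXR low. TPM moved the leaf median of all transcripts by -0.19. The cause of these moves was not tested. Of 72 alternatives for single steps, 64 stayed inside the counting limits, 8 moved outside them (4 with TPM and 4 with median-of-ratios factors, by at most 0.21), and none reversed a direction that the limits had set. Sums per assembled gene changed the sign of ISPD and ISPE in leaf over roots, to 0.03 and 0.05, both inside the limits. Of the 20 ratios of neighbouring steps, such sums, chosen after seeing the data, moved 12 outside their limits and reversed none that the limits had set. The share of all transcripts at least 2-fold higher in leaf was 34.6% among those with at least 5 FPKM in a library, that in rootlet 23.5%, and the share at least 2-fold lower in daughter root was 27.0% with no minimum beyond 1 fragment. No paired analysis was possible because each organ had 1 library and no test was made, and no replicate could be left out. The fewest fragments, 35 for ISPD in rootlet, set the widest limits. Transcripts come from a de novo assembly, so closely related copies may share reads.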
